A study of Mus musculus with 8 samples.

Results

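Aminoacyl-tRNA synthetases are the enzymes that load each tRNA with its amino acid. The genes described here are the 36 protein-coding mouse genes whose GENCODE M21 symbol is an amino acid letter followed by "ars", with an optional 1 or 2, or Farsa, Farsb or Fars2. They are 36 of the 47069 gene rows in the count files. Of these, 19 encode cytosolic enzymes and 17, with the suffix 2, encode mitochondrial enzymes. Members were matched by symbol, though this family was taken up with earlier results of these data known. All 36 passed the filter on low counts. Each had at least 199 counts in every library, so none of them entered only through the time point at which it was high. The rule misses Eprs, which joins both glutamate and proline to cytosolic tRNA, and Tarsl2, a close relative of Tars, and both are given further on.

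The study followed RNA in acute myeloid leukaemia cells after Klf4, a zinc finger transcription factor, was switched on. The cells carried the MLL-AF9 fusion, were labelled TetO-Klf4-AML, in which Klf4 is under doxycycline control, and were sorted by GFP from the bone marrow of leukaemic mice of a strain entered as C57BL/7. The groups are 0h, 6h, 12h and 24h with 2 libraries each, and all 8 libraries share the fusion and the transgene. The labels give neither the event from which the hours run, nor the age of the mice, nor whether replicates came from separate mice, and no library with doxycycline but without the transgene was analysed here.

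Charging of tRNA sets which amino acid a codon is read as, and the supply of charged tRNA limits how fast ribosomes move. The cytosol and the mitochondrion each run their own translation, and for most amino acids the cell keeps a separate nuclear gene for the enzyme of each compartment. Gars and Kars are exceptions that encode both forms, and mitochondrial glutaminyl-tRNA is made by amidation of glutamyl-tRNA, so Qars has no mitochondrial partner. Uncharged tRNA activates the kinase Gcn2, which acts through eIF2 to raise translation of Atf4, and in mammalian cells Atf4 is known to activate amino acid transporters, asparagine synthetase and genes of cytosolic synthetases at C/EBP-ATF response elements.

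Because regulation of these genes is known to run through such elements, the stretches around every match to the core of the element in the promoters of the synthetase genes are shown first. The motif searched was TGATGNAA on both strands, over 250 bases before to 50 bases after each annotated start, in RefSeq promoters of build GRCm38.p6. Promoters were held for 26 of the 36 members, 12 cytosolic and 14 mitochondrial. Each line runs 5′ to 3′ on the gene's strand, and the capitals mark the match.
Aars, chr8:111033704-111033763, plus strand: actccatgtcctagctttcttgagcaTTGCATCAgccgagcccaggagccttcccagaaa
Aars, chr8:111033825-111033871, plus strand: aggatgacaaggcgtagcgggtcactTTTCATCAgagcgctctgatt
Gars, chr6:55037945-55038004, plus strand: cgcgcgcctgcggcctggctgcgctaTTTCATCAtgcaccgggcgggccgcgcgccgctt
Iars, chr13:49682111-49682159, plus strand: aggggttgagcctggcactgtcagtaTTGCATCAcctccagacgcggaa
Tars, chr15:11399640-11399699, minus strand: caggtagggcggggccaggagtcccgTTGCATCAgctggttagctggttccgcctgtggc
Yars, chr4:129189880-129189932, plus strand: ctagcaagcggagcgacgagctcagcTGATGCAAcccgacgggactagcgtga

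The libraries held 20394546 to 26041347 gene counts, and the labels were checked against genes of known place. Klf4 had 2.71 and 4.42 CPM (gene counts scaled to a common library total) at 0h, 152 and 151 CPM at 6h, 115 and 111 CPM at 12h, and 76.9 and 78.8 CPM at 24h. Of 14 markers of leukaemic myeloid progenitors, 13 were at 1 CPM or more in every library. Their summed level was lower at 24h, at 3535 and 3601 CPM, against 3989 and 4018 CPM at 0h. Within the list Ctsg, which had the highest level, averaged 1296 CPM at 24h, against 1520 CPM at 0h, and Cd34 averaged 116 CPM, against 243 CPM. Hoxa9 averaged 449 CPM at 24h, against 413 CPM at 0h. Ptprc, Cebpa, Mpo, Csf1r and Itgam were also higher on average at 24h, and the others of the list were lower. Ms4a1, Pax5, Cd3e, Cd3g and Ncr1, which mark B, T and natural killer cells, were at 0 throughout, whereas Cd79b, of the B cell list, averaged 7.74 CPM at 24h, against 11.4 CPM at 0h, and Itga2b, of the megakaryocyte list, 5.18 CPM at 24h, against 7.93 CPM at 0h. The summed B cell list lay between 8.52 and 12.2 CPM and the megakaryocyte list between 7.95 and 13.4 CPM over the libraries. In the stroma and endothelium list Pecam1 carried the signal while the other 5 of 6 stayed under 1 CPM. The summed level of 5 markers of mature neutrophils was 71.9 and 72.5 CPM at 24h, against 47.1 and 50.3 CPM at 0h. Most of this sum was Ngp, which averaged 59.9 CPM at 24h, against 40.5 CPM at 0h. Ltf and Camp were also higher on average at 24h, Mmp8 was lower, and Retnlg stayed under 1 CPM in every library. The part of these lists in the results below was not tested. In bulk RNA, fewer cells of a type and less RNA per cell cannot be told apart.

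Each gene was compared with 0h by edgeR's quasi-likelihood test, and "called" means an adjusted p (Benjamini-Hochberg over all 14263 genes tested) under 0.05. With 2 libraries a time point, these p-values measure the spread between libraries, which may be technical. Log2 fold changes are the later time over 0h and carry a standard error (SE).

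The cytosolic genes fell into a rising set and a set that was lower or level. The same 12 of 19 were called higher at 6h, 12h and 24h, namely Aars, Cars, Gars, Iars, Lars, Mars, Nars, Sars, Tars, Vars, Wars and Yars. The 6h and 12h calls of Aars, Vars and Wars depended on the processing. With offsets for GC content and length, Vars was not called at any of the 3 times and Aars not at 12h (log2 0.05, edgeR adjusted p = 0.24), and with the mean gene also centred 9 of the 12 were called higher at 6h, 9 at 12h and 10 at 24h. DESeq2 did not call Wars at 12h (log2 0.13, adjusted p = 0.054). Of the other 7, Farsa and Qars were called lower at all 3 times, Hars and Kars at 12h and 24h, Farsb and Rars at 12h alone, and Dars at none. The mitochondrial genes moved little, with 2 called higher and 3 lower of 17 at 24h.

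At 24h, 12 cytosolic genes were called higher and 4 lower, and 3 were not called. The background in this comparison was 50.9% of all genes tested called, 26.1% higher and 24.8% lower. At 6h, 12 were called higher, 2 lower and 5 not, against a background of 18.3%, with 9.74% higher and 8.58% lower. At 12h, 12 were called higher, 6 lower and 1 not, against a background of 43.7%, with 22.1% higher and 21.6% lower. In a test against a 1.2-fold change in place of no change, 3 cytosolic genes were called higher at 6h, 3 at 12h and 10 at 24h. The background of that test was 434, 1372 and 1897 of all 14263 genes called higher at these times. The mitochondrial counts were 1 higher and 0 lower at 6h, 2 higher and 4 lower at 12h, and 2 higher and 3 lower at 24h, each of 17. None of them was lower at 6h at an unadjusted p under 0.05 or by DESeq2 either. Over the whole course, the test of all 3 differences from 0h called 18 of 19 cytosolic genes (94.7%), 8 of 17 mitochondrial genes (47.1%) and 52.8% of all genes tested.

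The median log2 fold change of the cytosolic genes was 0.21 at 6h, 0.23 at 12h and 0.37 at 24h. For the mitochondrial genes it was 0.04, -0.07 and -0.02, and over all genes tested it was 0.00, 0.00 and 0.02. At 24h the change was at least 0.2 in size for 16 of 19 cytosolic and 5 of 17 mitochondrial genes, against 59% of all genes tested. The mitochondrial genes are counted less deeply, so their median SE at 24h was 0.07, against 0.04 for the cytosolic genes, and changes that a cytosolic gene would show as called can be missed among them.

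**Figure D1:**
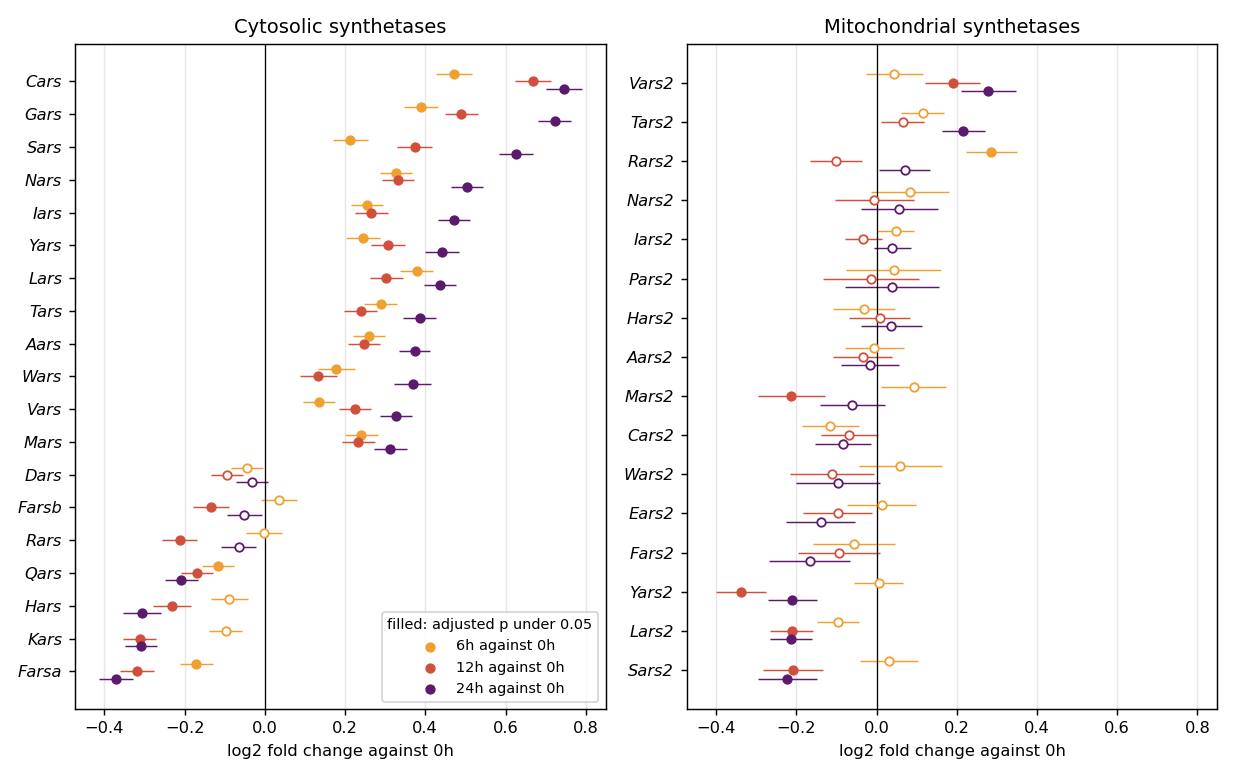
Log2 fold change against 0h at 6h, 12h and 24h for the 19 cytosolic genes (left) and 16 of the 17 mitochondrial genes (right), with bars of 1 SE, and filled points where the adjusted p was under 0.05. The 12 upper cytosolic genes lie right of 0 at every time, the lowest of them at 24h being Mars at 0.31, while the rightmost mitochondrial point is Rars2 at 6h, at 0.29. With offsets for GC content and length, Vars lay left of 0 at 6h and 12h, and with the mean gene also centred Vars did so at all 3 times and Aars at 12h.

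Cars, which charges cysteine, had the largest change. It lies on chromosome 7 (143557230 to 143600090, minus strand, mm10). It had 101 and 101 CPM at 0h, 140 and 140 CPM at 6h, 160 and 160 CPM at 12h, and 172 and 165 CPM at 24h. Every later library was above both 0h libraries, and Cars was the cytosolic gene with the lowest level per length at 0h. At 24h it rose 1.68-fold over 0h (log2 0.75 ± 0.04 SE, adjusted p = 1.1e-16 by edgeR's quasi-likelihood test).

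Gars charges glycine in cytosol and mitochondrion. It lies on chromosome 6 (55038007 to 55079500, plus strand, mm10), and its promoter stretch is among those printed above. Its levels were 276 and 293 CPM at 0h, 372 and 373 CPM at 6h, 403 and 396 CPM at 12h, and 467 and 473 CPM at 24h. No groups of libraries overlapped, and the smallest step, between 6h and 12h, was not called (log2 0.10 ± 0.04, edgeR adjusted p = 0.075). At 24h Gars was 1.65-fold higher than at 0h (log2 0.72 ± 0.04, edgeR adjusted p = 3.5e-17).

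Sars, for serine, rose in each step. Its levels were 191 and 195 CPM at 0h, 217 and 230 CPM at 6h, 256 and 244 CPM at 12h, and 295 and 301 CPM at 24h. The groups of libraries were separate at every step, and at 24h Sars was 1.54-fold higher than at 0h (log2 0.63 ± 0.04, edgeR adjusted p = 6.1e-15). Its step between 6h and 12h lost its call without 6h replicate 1 or without 12h replicate 1.

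Nars, for asparagine, had the highest level per length of the 36 at 0h. Its levels were 462 and 467 CPM at 0h, 586 and 580 CPM at 6h, 578 and 591 CPM at 12h, and 664 and 654 CPM at 24h. The 6h and 12h libraries overlapped, and the 24h libraries stood above both. The log2 fold change at 24h was 0.50 ± 0.04 (edgeR adjusted p = 3.2e-13).

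Iars, Lars, Yars and Tars, for isoleucine, leucine, tyrosine and threonine, followed with smaller rises. Iars had 250 and 253 CPM at 0h, 304 and 297 CPM at 6h, 299 and 306 CPM at 12h, and 346 and 353 CPM at 24h. Lars had 202 and 209 CPM at 0h, 268 and 266 CPM at 6h, 254 and 253 CPM at 12h, and 281 and 276 CPM at 24h. In both genes the 24h libraries were the highest, and in Lars both 12h libraries lay under both 6h libraries, a step that was not called. Yars had 166 and 169 CPM at 0h, 191 and 205 CPM at 6h, 207 and 207 CPM at 12h, and 225 and 229 CPM at 24h. Tars had 187 and 187 CPM at 0h, 231 and 226 CPM at 6h, 218 and 224 CPM at 12h, and 243 and 246 CPM at 24h. At 24h the log2 fold changes were 0.47 for Iars, 0.44 for Yars, 0.44 for Lars and 0.39 for Tars, each with an SE of 0.04 and called higher by edgeR.

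The 4 remaining genes that rose at every time, Aars for alanine, Wars for tryptophan, Vars for valine and Mars for methionine, had log2 fold changes of 0.37, 0.37, 0.33 and 0.31 at 24h. Wars had 122 and 133 CPM at 0h, 142 and 147 CPM at 6h, 140 and 141 CPM at 12h, and 169 and 162 CPM at 24h, so its later libraries all lay above its 0h libraries. Its call at 6h was lost without 0h replicate 1 (log2 0.12, edgeR adjusted p = 0.21), and its call at 12h was lost without 0h replicate 1 (log2 0.07, edgeR adjusted p = 0.39) or without either 12h library. Vars had 362 and 371 CPM at 0h, 397 and 409 CPM at 6h, 428 and 430 CPM at 12h, and 466 and 454 CPM at 24h. It lost its 6h call without either 0h library or 6h replicate 2 (edgeR adjusted p of 0.062 to 0.17). Vars has the highest GC content of the cytosolic genes, 60.9% in its longest transcript, against a median of 50.3%. With offsets for GC content and length, its log2 fold change was -0.09 at 6h and -0.07 at 12h, and it was not called at 24h. With the mean gene also centred it was -0.12 at 24h. Aars shares 1326 exon bases, 14.3% of its exons, with Exosc6 on the same strand. Exosc6 has no row in the count files, so its reads from these bases cannot be told apart from those of Aars. Mars shares 68 exon bases, 1.99% of its exons, with Ddit3 on the opposite strand, and Ddit3 rose by a log2 of 1.46 ± 0.11 at 24h. The strand setting of the counting is not given. Whether reads from the bases shared with Ddit3 were counted to Mars, to Ddit3 or as ambiguous cannot be told.

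**Figure D2:**
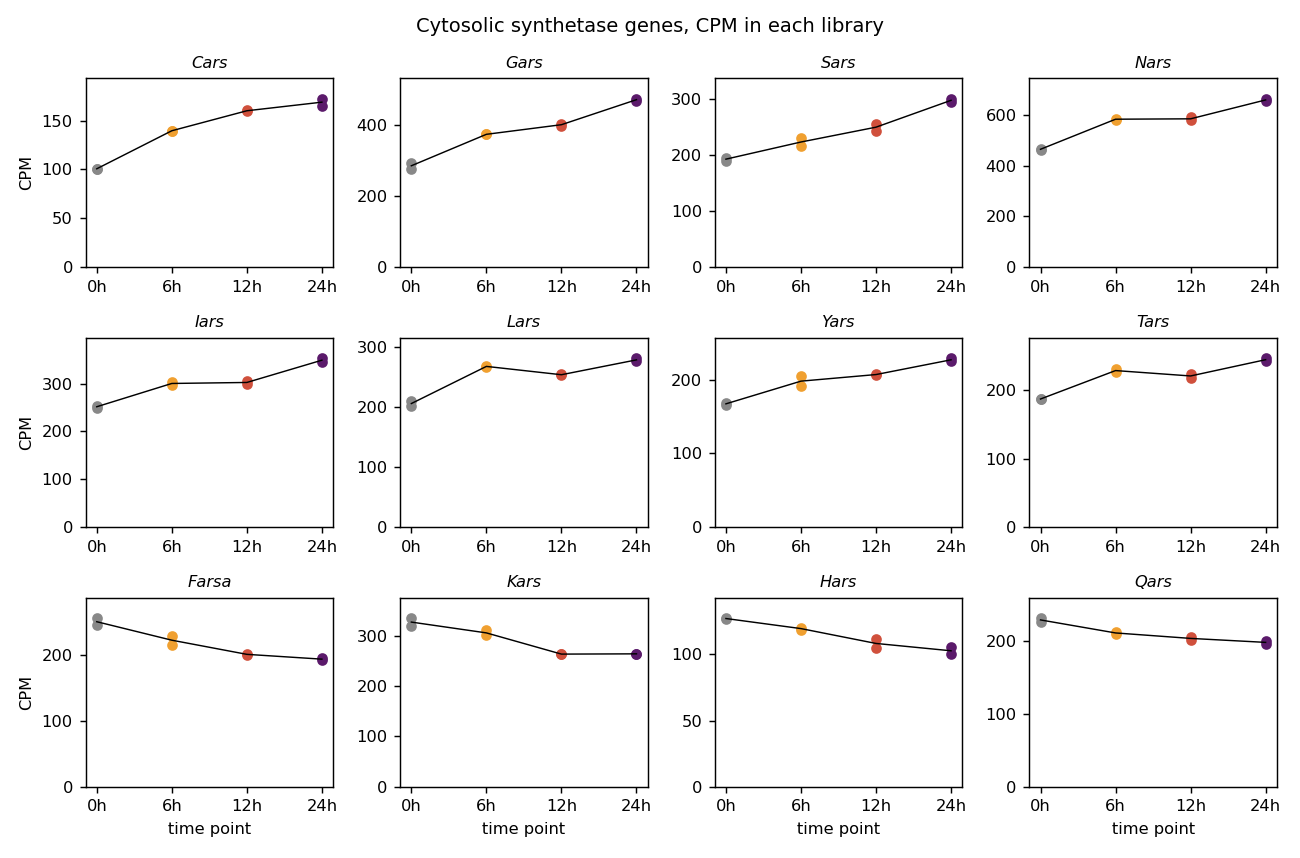
CPM in each library (points) and the mean of 2 libraries (line) at 0h, 6h, 12h and 24h for the 8 cytosolic synthetase genes that rose most and the 4 called lower at 24h. Each vertical axis starts at 0. Cars climbs to 172 and 165 CPM at 24h, and Farsa ends at 192 and 195 CPM.

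Part of the rise was in place by 6h, and how much differed between genes. Among the 12 genes, the log2 change at 6h made up 34.0% (Sars) to 86.8% (Lars) of the change at 24h, with a median of 59.4%. Between 6h and 12h, 2 cytosolic genes, Cars and Sars, were called higher and 5 (Farsa, Farsb, Hars, Kars and Rars) lower, against a background of 20.7% of all genes called, 10.9% higher and 9.79% lower. The 5 were 3 without 6h replicate 2 or either 12h library. In this step 4 mitochondrial genes (Mars2, Rars2, Sars2 and Yars2) were called lower and 0 higher, with 2, Vars2 among them, higher at an unadjusted p under 0.05 and 0 called higher by DESeq2. Between 12h and 24h, 10 of 19 were called higher and 0 lower by edgeR (0 also at an unadjusted p under 0.05 and by DESeq2), where the background was 6.46% called, 3.41% higher and 3.04% lower. These 10 were Rars and 9 of the 12 genes that rose at every time, Cars, Mars and Vars being the other 3. The edgeR test gave 4 in place of 10 without 12h replicate 1 and 5 without 12h replicate 2, without 24h replicate 1, without 24h replicate 2, or with no filter on low counts. Gars, Iars, Sars and Wars had the smallest adjusted p in this step, 0.00014, 0.00062, 7.0e-05 and 0.00053 by edgeR.

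Farsa and Farsb encode the alpha and beta subunits of the same cytosolic enzyme, for phenylalanine. Farsa had 245 and 256 CPM at 0h, 215 and 229 CPM at 6h, 202 and 200 CPM at 12h, and 192 and 195 CPM at 24h. Farsb had 138 and 140 CPM at 0h, 141 and 144 CPM at 6h, 128 and 125 CPM at 12h, and 137 and 131 CPM at 24h. Farsa stepped down with no overlap between groups, and Farsb was low at 12h and close to its 0h level at 24h. At 24h Farsa fell by 0.37 ± 0.04 on the log2 scale (edgeR adjusted p = 2.9e-09), while Farsb had a log2 fold change of -0.05 ± 0.04 (edgeR adjusted p = 0.34). The call of Farsa at 6h was lost without 0h replicate 2 or 6h replicate 1, and that of Farsb at 12h without 0h replicate 2 or 12h replicate 2. With offsets for GC content and length, Farsb had 0.01 at 12h. The difference between the subunits was not tested.

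Kars, Hars and Qars, for lysine, histidine and glutamine, also fell. Kars, which serves cytosol and mitochondrion like Gars, had 319 and 335 CPM at 0h, 301 and 310 CPM at 6h, 263 and 264 CPM at 12h, and 263 and 264 CPM at 24h. It fell by 0.31 ± 0.04 on the log2 scale at 24h (edgeR adjusted p = 6.4e-08), and its 12h and 24h libraries were level with each other. Hars had 127 and 127 CPM at 0h, 119 and 120 CPM at 6h, 105 and 111 CPM at 12h, and 105 and 99.9 CPM at 24h. Qars had 231 and 227 CPM at 0h, 210 and 213 CPM at 6h, 205 and 202 CPM at 12h, and 200 and 196 CPM at 24h. In both genes each later library was under both 0h libraries, and at 24h the log2 fold changes were -0.31 ± 0.05 for Hars and -0.21 ± 0.04 for Qars. The 6h call of Qars (edgeR adjusted p = 0.04) was lost without either 0h library, 6h replicate 1 or either 12h library. Hars and Hars2 lie head to head and share 195 exon bases on opposite strands.

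Rars, for arginine, had 155 and 162 CPM at 0h, 162 and 154 CPM at 6h, 136 and 137 CPM at 12h, and 152 and 151 CPM at 24h. Its 12h libraries stood apart below the others, with a log2 fold change of -0.21 ± 0.04 (edgeR adjusted p = 0.00016), and at 24h it was at -0.06 ± 0.04 (edgeR adjusted p = 0.22). Dars, for aspartate, had 261 and 260 CPM at 0h, 253 and 253 CPM at 6h, 246 and 242 CPM at 12h, and 256 and 254 CPM at 24h. It was the only cytosolic gene that the test over the course did not call (edgeR adjusted p = 0.21), and its 24h change was -0.03 ± 0.04.

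In mammals 7 of these 19 enzymes (Dars, Iars, Kars, Lars, Mars, Qars and Rars) sit with the Eprs protein in a multisynthetase complex. At 24h, 3 of the 7 were called higher, 2 lower and 2 not, with a median log2 fold change of -0.03. Eprs, which the symbol rule misses, is not in these counts and this median, and was itself called higher (log2 0.50 ± 0.04). Of the 12 outside the complex, 9 were called higher, 2 lower and 1 not, with a median of 0.38. By the fold of the catalytic domain, class I genes gave 7 higher, 1 lower and 1 not of 9, and class II genes 5 higher, 3 lower and 2 not of 10. Of all genes tested, 26.1% were called higher and 24.8% lower at 24h, and these splits are counts with no test.

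Among the mitochondrial genes, Vars2 and Tars2 were called higher at 24h. Vars2 had 32.6 and 35.7 CPM at 0h, 32.7 and 37.6 CPM at 6h, 38.8 and 39.1 CPM at 12h, and 41.2 and 41.8 CPM at 24h, a log2 fold change of 0.28 ± 0.07 at 24h (edgeR adjusted p = 0.0008). Its 12h call was lost without 0h replicate 1 (log2 0.12, edgeR adjusted p = 0.28) or either 12h library. Vars2 is GC-rich like Vars, at 58.6% in its longest transcript, and with offsets for GC content and length its 12h change was -0.04. At 24h it was 0.05 with these offsets (edgeR adjusted p = 0.56) and -0.11 with the mean gene also centred (edgeR adjusted p = 0.16), so its 24h call was lost. Tars2 had 69.9 and 75.7 CPM at 0h, 77.6 and 80.2 CPM at 6h, 79.2 and 73.2 CPM at 12h, and 84.3 and 85.1 CPM at 24h. Its log2 fold change at 24h was 0.22 ± 0.05 (edgeR adjusted p = 0.00079), and the call was lost without 0h replicate 1 (log2 0.16, edgeR adjusted p = 0.053).

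Sars2, Lars2 and Yars2 were called lower at 12h and 24h. Sars2 had 27.9 and 28.6 CPM at 0h, 28.2 and 29.5 CPM at 6h, 24.6 and 24.3 CPM at 12h, and 25.4 and 23.0 CPM at 24h. Lars2 had 66.5 and 68.2 CPM at 0h, 62.1 and 63.9 CPM at 6h, 58.9 and 57.5 CPM at 12h, and 58.6 and 57.7 CPM at 24h. Yars2 had 42.1 and 41.9 CPM at 0h, 42.2 and 42.0 CPM at 6h, 33.7 and 32.8 CPM at 12h, and 36.6 and 35.9 CPM at 24h. In all 3 genes the 12h and 24h libraries lay under the 0h libraries, and at 24h the log2 fold changes were -0.22 ± 0.07 for Sars2, -0.21 ± 0.05 for Lars2 and -0.21 ± 0.06 for Yars2. The edgeR adjusted p at 24h was 0.011, 0.00092 and 0.0045 in that order. Sars2 lost its 24h call without 0h replicate 2 or 24h replicate 2, and its 12h call without any 1 of the 0h or 12h libraries.

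Rars2, the mitochondrial partner of Rars, was called higher at 6h only, with 45.7 and 47.4 CPM at 6h, against 39.6 and 36.9 CPM at 0h. At 24h it had 41.2 and 38.9 CPM, overlapping 0h, and its 6h call was lost without 0h replicate 2 (edgeR adjusted p = 0.061). Mars2 was called lower at 12h only, and lost its call without either 0h library or 12h replicate 1. A set of 9 mitochondrial genes (Aars2, Cars2, Ears2, Fars2, Hars2, Iars2, Nars2, Pars2 and Wars2) were called at no time. Their log2 fold changes at 24h lay between -0.17 (Fars2, SE 0.10) and 0.06 (Nars2, SE 0.10). Pars2 and Ears2, for proline and glutamate, have no cytosolic partner among the members because that role falls to Eprs. Iars2, which charges isoleucine in mitochondria and has the highest mitochondrial level per length, shares 22.9% of its exon bases with Rab3gap2 on the opposite strand. Between 12h and 24h edgeR and DESeq2 called 0 mitochondrial genes in either direction. At an unadjusted p under 0.05 in edgeR, 3 were higher (Rars2, Tars2 and Yars2) and 0 lower.

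Levels between genes are given as CPM per kilobase of exons. At 0h the cytosolic genes ran from 15.3 (Cars) to 107 (Nars) with a median of 49.1, and the mitochondrial genes from 1.99 (Nars2) to 15.5 (Iars2) with a median of 6.08. At 24h Nars and Gars both reached 151, and Cars stood at 25.6. The lowest cytosolic level at 0h lay just under the highest mitochondrial level, whereas per kilobase of the longest transcript it lay above it, at 31.3 against 25.2. By that length Nars and Gars stood at 240 and 197 at 24h, and Mars2, at 2.56, was the lowest mitochondrial gene at 0h. Summed over members, cytosolic genes held 5420 and 5376 CPM at 24h, against 4398 and 4501 CPM at 0h, a 1.21-fold difference. Mitochondrial genes held 650 and 646 CPM at 24h, against 643 and 646 CPM at 0h, a 1.01-fold difference. Shares of all gene counts leave out the TMM scaling that CPM carry, so they differ from these sums. The share of the cytosolic genes was 0.432% at 0h, then 0.497%, 0.504% and 0.548% at the later times. The share of the mitochondrial genes was 0.0626% at 0h, then 0.0659%, 0.0634% and 0.0658%.

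**Figure D3:**
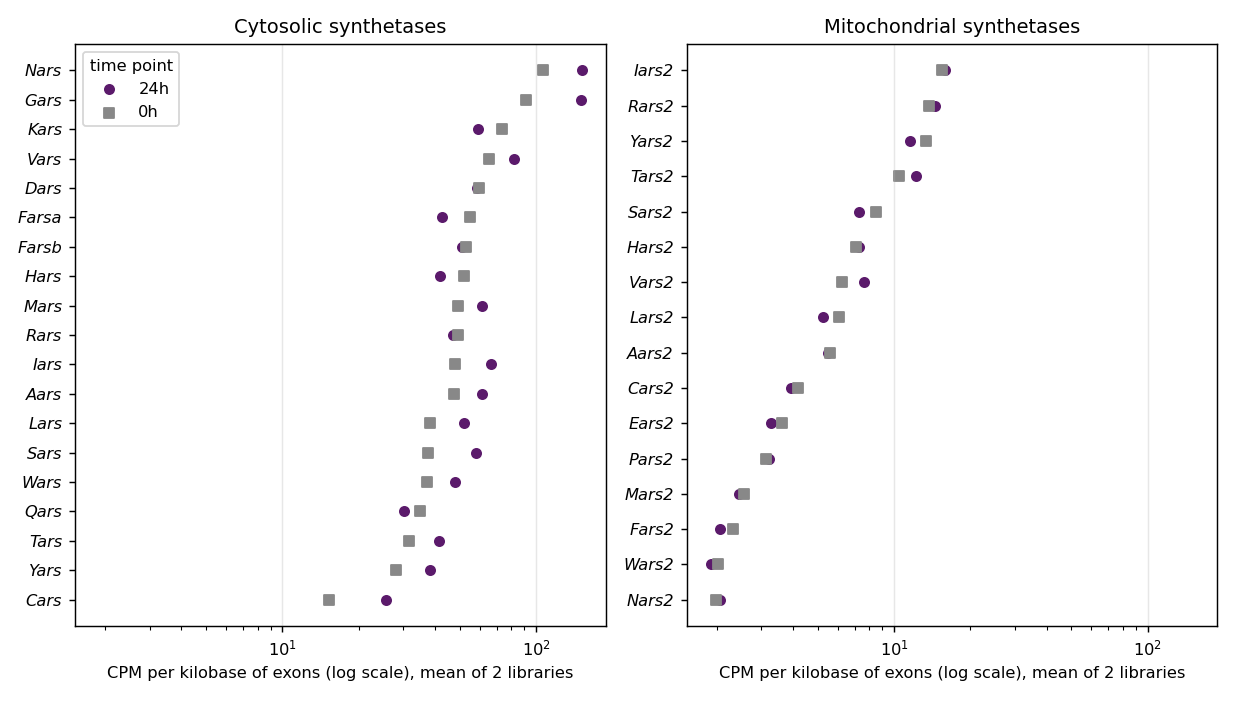
Mean CPM per kilobase of exons over 2 libraries at 24h (circles) and 0h (squares), on a log scale, for the 19 cytosolic (left) and 16 of the 17 mitochondrial (right) genes ordered by their 0h level. Cytosolic levels at 0h run from 15.3 to 107 and mitochondrial levels from 1.99 to 15.5.

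The cytosolic and the mitochondrial gene of the same amino acid were set side by side for 14 amino acids, which gives 15 pairs because phenylalanine has both Farsa and Farsb. The ratio of the cytosolic to the mitochondrial level per length was taken within each library, so a scaling factor common to all genes of a library does not enter it. Effects of GC content and length that differ between libraries can enter it, and the ratios were not taken with offsets for these. At 24h the ratio was above both 0h libraries in 11 of 15 pairs, below in 3 and overlapping in 1, with a median log2 change of 0.39. At 6h the counts were 10, 3 and 2 with a median of 0.17, and at 12h they were 10, 3 and 2 with a median of 0.28. Of all genes tested, 56.3% at 6h, 71.2% at 12h and 74.9% at 24h had levels that did not overlap with those at 0h, in either direction. These shares are of levels of single genes, and no such share was taken for ratios between genes. An exact permutation of 2 against 2 libraries cannot reach 0.05, so no test is given for the ratios.

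At 24h the serine pair had the largest mean change, and at 6h and 12h the cysteine pair did (log2 0.59 and 0.74, against 0.18 and 0.58 for serine). The ratio of Sars to Sars2 was 7.50 and 8.43 at 24h, against 4.40 and 4.40 at 0h, a log2 change of 0.85, with Sars called higher and Sars2 lower. The ratio of Yars to Yars2 was 3.26 and 3.38 at 24h, against 2.09 and 2.14 at 0h, and that of Lars to Lars2 was 9.90 and 9.87 at 24h, against 6.27 and 6.33 at 0h. In these 3 pairs, for serine, tyrosine and leucine, the cytosolic gene was called higher and the mitochondrial gene lower at 24h. The ratio of Cars to Cars2 was 6.74 and 6.29 at 24h, against 3.74 and 3.60 at 0h, a log2 change of 0.83 with Cars alone called. Cars2 had 28.1 and 28.9 CPM at 24h, against 29.6 and 30.8 CPM at 0h, with every 24h library under the 0h libraries, and its change of -0.08 ± 0.07 was not called. Nars stood highest over its partner, with a ratio to Nars2 of 74.8 and 71.4 at 24h, against 53.5 and 53.7 at 0h. Nars2 had 14.2 and 14.7 CPM at 24h, against 13.8 and 13.9 CPM at 0h. Iars2 had 140 and 143 CPM at 24h, against 141 and 134 CPM at 0h, with overlapping libraries, while Iars rose.

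Valine was the pair that overlapped. The ratio of Vars to Vars2 was 11.0 and 10.6 at 24h, against 10.8 and 10.1 at 0h, and both genes were called higher. The ratio of Tars to Tars2, both also called higher, was 3.38 and 3.40 at 24h, against 3.14 and 2.91 at 0h. The 3 pairs with a lower ratio at 24h were those of Rars, Hars and Farsa. The largest drop was in the histidine pair, at 6.03 and 5.47 at 24h, against 7.29 and 7.30 at 0h. Hars2 had 30.5 and 31.9 CPM at 24h, against 30.4 and 30.5 CPM at 0h, so the lower ratio went with the lower level of Hars. Fars2 had 12.1 and 11.7 CPM at 24h, against 13.3 and 13.4 CPM at 0h, and was not called.

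**Figure D4:**
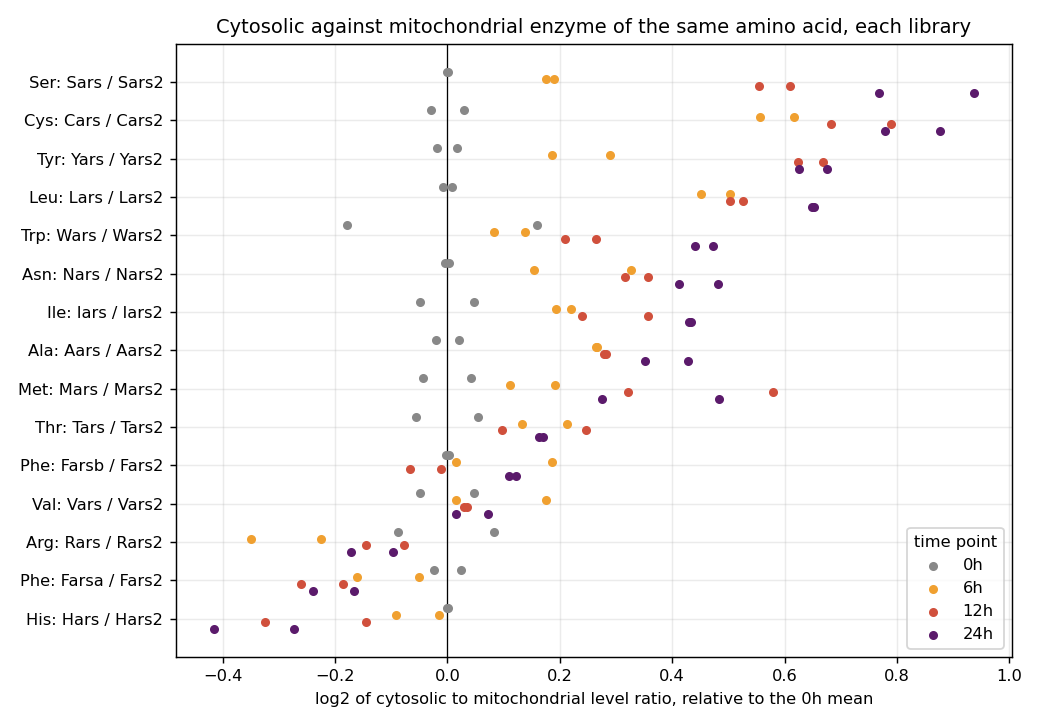
Log2 of the cytosolic to mitochondrial level ratio in each library, relative to the mean of the 0h libraries, for 15 same-amino-acid pairs at 0h, 6h, 12h and 24h. The Sars and Sars2 pair at the top reaches 0.85 on average at 24h, and the pairs of Rars, Farsa and Hars at the bottom lie left of 0.

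The core of the C/EBP-ATF element, as printed above, was found in 5 of the 12 cytosolic promoters held and in 0 of the 14 mitochondrial ones, against 4.51% of all 27025 genes with a promoter in the table. All 5 genes with a match (Aars, which has a pair of matches, Gars, Iars, Tars and Yars) are among the 12 that rose. Of the 7 rising genes with a promoter held, 5 had a match, Mars and Sars having none, and of the 5 other cytosolic genes with a promoter (Dars, Farsa, Farsb, Kars and Qars) 0 had one. The stricter form TGATGCAA was found in 4 of the 12 (Aars, Iars, Tars and Yars), against 1.03% of all genes. Cars, Hars, Hars2, Lars, Nars, Pars2, Rars, Vars and Wars are among those with no entry. Eprs, which is outside the symbol rule and also rose, has a promoter in the table and none of the motifs searched.

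A KLF-type GC/GT box, GGGNGTGG on either strand, was also searched because Klf4 is the induced factor and binds such boxes. It was found in 3 of the 12 cytosolic promoters (Dars, Qars and Sars) and in 4 of the 14 mitochondrial ones (Cars2, Fars2, Rars2 and Tars2), against 19.7% of all genes. Sars, which rose, and Dars, which was not called, each hold a pair of matches. Cars2 and Fars2, which were called at no time, hold a pair each as well. The stretches of Sars and Dars are shown, with the matches in capitals.
Sars, chr3:108445282-108445334, minus strand: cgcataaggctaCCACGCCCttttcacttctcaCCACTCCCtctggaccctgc
Dars, chr1:128417426-128417474, minus strand: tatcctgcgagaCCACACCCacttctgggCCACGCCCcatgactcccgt
The E-box CACGTG, a palindrome that MYC and related factors bind, was in 4 of the 12 cytosolic promoters (Aars, Farsb, Iars and Tars) and in 1 of the 14 mitochondrial ones (Ears2), against 8.09% of all genes. Of the 7 rising cytosolic genes with a promoter held, 3 had an E-box (Aars, Iars and Tars), and each of them also holds the C/EBP-ATF core. Of the 5 other cytosolic genes, 1 had an E-box (Farsb). A match of letters is a description and not a bound site.

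**Figure D5:**
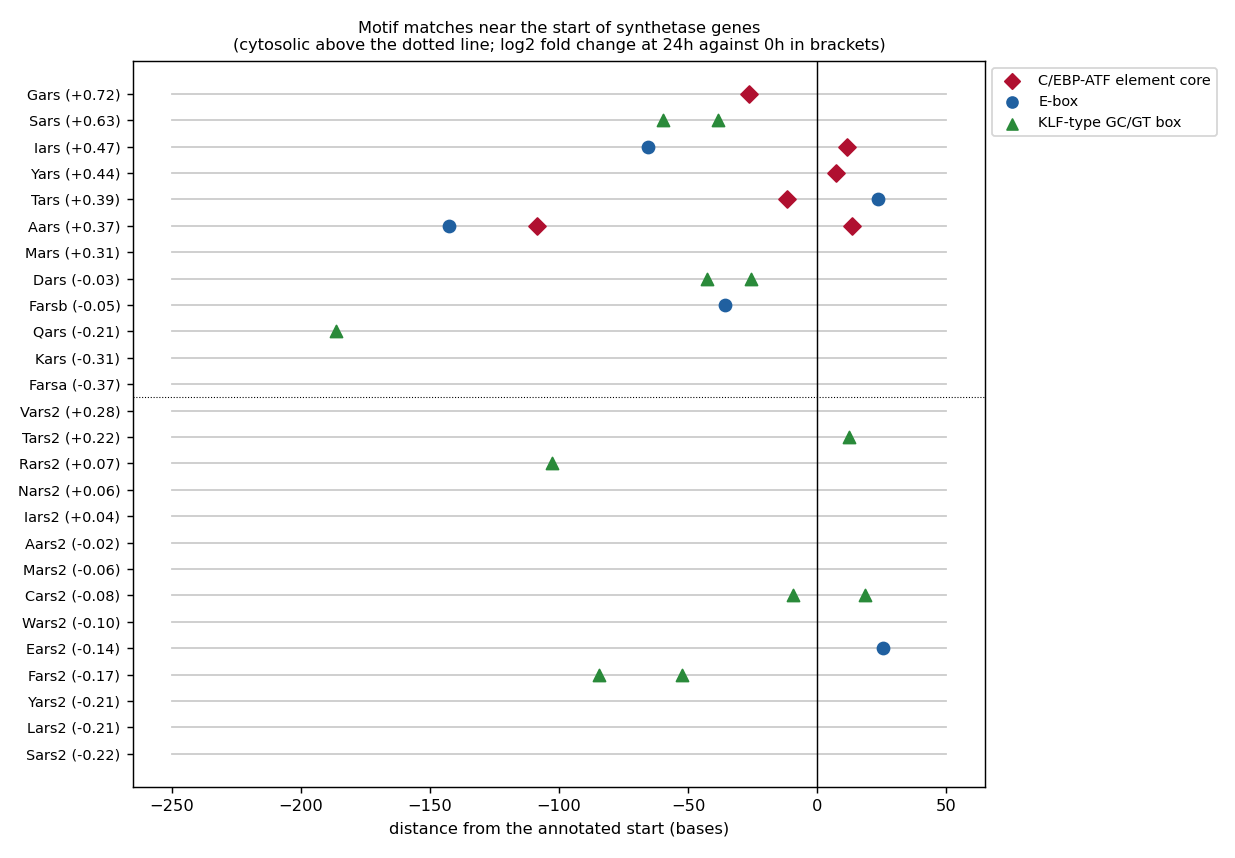
Positions of motif matches from 250 bases before to 50 bases after the annotated start, for 12 cytosolic (above the dotted line) and 14 mitochondrial genes, ordered by log2 fold change at 24h against 0h. Diamonds, the C/EBP-ATF element core, stand in 5 cytosolic rows, all of genes called higher, and in 0 mitochondrial rows.

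Genes that work beside the synthetases were followed in lists drawn up with earlier results of these data known. The counts at 24h in these lists stand against 26.1% of all genes tested called higher and 24.8% lower. Eprs rose like the 12, with 520 and 536 CPM at 24h, against 375 and 373 CPM at 0h (log2 0.50 ± 0.04, edgeR adjusted p = 1.4e-12). Tarsl2 was not called at any time (log2 0.06 ± 0.07 at 24h). The scaffolds of the multisynthetase complex, Aimp1, Aimp2 and Eef1e1, were all 3 called lower at 12h and 24h. Aimp2 had 23.4 and 25.9 CPM at 24h, against 30.8 and 36.8 CPM at 0h (log2 -0.46 ± 0.08, edgeR adjusted p = 5.9e-06). Of 4 editing and ancillary factors, which remove wrongly charged amino acids, 3 were called lower at 24h, Dtd1, Dtd2 and Prorsd1.

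Of 8 genes of tRNA maturation and export, 1 was called higher at 24h and 2 lower. The one higher was Xpot, the exporter of tRNA from the nucleus, with 391 and 384 CPM at 24h, against 298 and 300 CPM at 0h (log2 0.37 ± 0.04, edgeR adjusted p = 7.5e-10). Of 5 cytosolic elongation factors, Eef1b2, Eef1d and Eef1g, subunits of the exchange factor of eEF1A, were called lower at 24h, while Eef1a1 and Eef2, which bring tRNA to the ribosome and move it along, were not called. Of 9 mitochondrial initiation, elongation and release factors, Mtrf1l was called higher and Tufm, Gfm1 and Tsfm lower at 24h. Tufm, the mitochondrial elongation factor that carries charged tRNA, had 125 and 123 CPM at 24h, against 163 and 160 CPM at 0h (log2 -0.38 ± 0.05). Of 4 genes that amidate or formylate charged tRNA in mitochondria, Qrsl1 and Gatc were called lower, and of 4 selenocysteine genes Eefsec was called lower.

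The 14 amino acid response genes of Atf4 were all called higher at 6h, 12h and 24h, with a median log2 fold change of 0.48, 0.70 and 1.01, against 9.74%, 22.1% and 26.1% of all genes tested called higher. This list too was drawn up with earlier results known. Asns, the asparagine synthetase, had 421 and 431 CPM at 24h, against 197 and 202 CPM at 0h (log2 1.09 ± 0.04, edgeR adjusted p = 2.5e-22). Trib3, a pseudokinase that restrains Atf4, had 89.8 and 86.1 CPM at 24h, against 9.05 and 9.49 CPM at 0h. Slc7a11, the cystine importer, had 53.1 and 52.2 CPM at 24h, against 9.25 and 7.97 CPM at 0h. Chac1, which breaks down glutathione, had 45.4 and 44.8 CPM at 24h, against 9.10 and 9.58 CPM at 0h. In all 4 genes the 24h libraries stood far above the 0h libraries. The largest synthetase change, 0.75 in Cars, was under that median, and all 19 cytosolic genes lay under the 1.09 of Asns.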

How the data were processed

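Total RNA of 8 bulk libraries was sequenced from TruSeq PE libraries, per the labels' protocols. The authors deposited raw counts per Ensembl gene, and the submitters' processing notes name STAR, SAMtools 1.3, HTSeq 2.0.3 and build mm10. The strand setting, annotation release and STAR version are not given in the sources at hand. How reads were counted where 14 of 36 members overlap other genes can therefore not be told. One mitochondrial member and 1 marker gene are counted in the totals over their lists but are not reported here by name, and that member enters no pair or plot. Library sizes and tests leave out summary rows that name no gene. Those rows held fragments outside gene features, 5.47% of fragments on average at 0h, then 6.21%, 8.63% and 9.15%, and ambiguous ones, 5.47% at 0h, then 5.34%, 5.14% and 5.06%. GENCODE M21 named 46574 of 47069 gene IDs.

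Counts were filtered with filterByExpr, scaled by TMM and fitted with edgeR 4.0.16 in R 4.3.3, all 8 libraries in 1 quasi-likelihood fit with a mean per time point and 4 residual degrees of freedom. CPM use the TMM scaling and were divided by the union of exons for levels per length. Totals of 20394546 to 26041347 counts gave each member at least 199 counts in every library. The members and lists were chosen with earlier results of these data known, so counts and medians over them carry no test. Values per library are given for the 8 cytosolic and 5 mitochondrial genes with the largest change at 24h among those called at some time, for the cytosolic genes uncalled or lower, for the genes at the ends of the level range, and for partners. Values of Wars were added after they were seen. Alternatives were DESeq2 1.42.0, other scalings and filters, a replicate block, a fit to only the 4 libraries compared, a threshold of 1.2-fold, offsets for GC content and length, and leaving out each library. Motif searches used RefSeq promoters of GRCm38.p6.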

Additional observations from a re-analysis of the deposited data

Results flagged for a closer look

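Fragments counted to no gene feature lie outside the comparisons above and made up 9.15% of fragments on average at 24h (n = 2), against 5.47% at 0h (n = 2). What these fragments are was not tested, and synthetase reads among them, such as reads in introns, would not be in the counts.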

How the results depend on the processing

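The 12 cytosolic rises at 24h kept their call under DESeq2, 3 other scalings, 2 other filters, the replicate block, 4 libraries alone and each left-out library. They numbered 10 in a test against a 1.2-fold change (Mars and Vars lost) and 11 with offsets for GC content and length (Vars lost). With the mean gene also centred, an alternative chosen after seeing the data, they numbered 10 (Aars and Vars lost). At 6h and 12h they numbered 11 (Vars lost) and 10 (Aars and Vars lost) with offsets, 9 and 9 with centring (Aars, Vars and Wars lost at both times), and 11 at 12h under DESeq2 (Wars lost). With centring the median log2 fold change of all genes was -0.07 at 6h, -0.12 at 12h and -0.13 at 24h, against 0.00, 0.00 and 0.02 with TMM. The share of called genes that were higher was then 22.3%, 26% and 28.5%, and with library totals alone 69.9%, 65.4% and 62.8%, against 53.2%, 50.6% and 51.3% with TMM at the same times. The cause was not tested.

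The replicate numbers did not pair the samples (correlations of -0.017 to 0.021). With the replicate block, the genes called numbered 2495 (2613 without it) at 6h, 6116 (6229) at 12h and 7160 (7257) at 24h, and of the members' calls only those of Aars and Yars between 12h and 24h were lost, leaving 8 of 10.

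Signs turned with the GC and length offsets for Vars (-0.085 at 6h, -0.072 at 12h), Vars2 (-0.044 at 12h), Farsb (0.014 at 12h, 0.11 at 24h), Dars (0.12 at 24h) and Rars (0.10 at 24h). With centring they turned for Vars (-0.16, -0.20 and -0.12 at 6h, 12h and 24h), Vars2 (-0.20, -0.18 and -0.11), Aars (-0.084 at 12h) and Iars2 (-0.11 at 24h). The cytosolic minus mitochondrial median was 0.18 at 12h and 0.31 at 24h under either form, against 0.30 and 0.39.

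Against 0h, the 1.2-fold test called 468, 1815 and 2865 genes at 6h, 12h and 24h, with cytosolic genes 3 higher and 0 lower at 6h, 3 higher and 0 lower at 12h and 1 lower at 24h, and 0 mitochondrial genes in either direction (at an unadjusted p under 0.05, 1 lower at 12h). It called 329 genes between 6h and 12h and 106 between 12h and 24h, where the other tests gave 2947 and 921 (edgeR) and 1632 and 445 (DESeq2), and 0 members in either step. DESeq2 called 1668 genes at 6h, 1 cytosolic gene lower at 6h, and 1 mitochondrial gene higher and 2 lower at 12h. The lower cytosolic count at 6h was also 1, not 2, with library totals, no filter, 4 libraries or the GC offsets. Library totals gave 2 mitochondrial genes higher at 6h, 2 lower at 12h, and 4 cytosolic and 1 mitochondrial higher between 6h and 12h. No filter gave 5 cytosolic genes higher between 12h and 24h, and 4 libraries alone gave 1 mitochondrial. The GC offsets gave 1 mitochondrial gene higher at 12h, in 6h to 12h and in 12h to 24h. Centring called 4042 genes at 6h, with mitochondrial genes 3 lower at 6h, 1 higher and 8 lower at 12h, and 0 higher and 9 lower at 24h. Of all 14263 genes, centring called 3139 lower at 6h, 5386 at 12h and 5737 at 24h, and 903, 1897 and 2282 higher.

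Leaving out 1 library gave 1319 to 2715 genes called at 6h, 1296 to 3061 between 6h and 12h, and 373 to 1256 between 12h and 24h. At 6h it gave 0 to 3 cytosolic genes lower, 0 to 1 mitochondrial higher and a median difference of 0.16 to 0.21. At 12h it gave 0 to 2 mitochondrial genes higher and 2 to 4 lower. At 24h it gave 1 to 3 mitochondrial higher and a difference of 0.30 to 0.43. Between 6h and 12h it gave 1 to 2 cytosolic higher, 3 to 5 lower, 0 to 1 mitochondrial higher, 2 to 4 lower and a difference of 0.036 to 0.072. Between 12h and 24h it gave 4 to 10 cytosolic higher, 0 to 1 mitochondrial higher and a difference of 0.068 to 0.11. Per kilobase of the longest transcript, the median level at 0h was 68.3 for cytosolic and 9.13 for mitochondrial genes, against 49.1 and 6.08 per kilobase of all exons. Depth limits the mitochondrial genes most, which had as few as 199 counts in a library.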
